A study of Mus musculus with 10 samples.

Results

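Open chromatin was examined around 5 genes through which osteoblasts regulate osteoclasts: Csf1, Tnfsf11, Tnfrsf11b, Il6 and Lif. The members were every window that the authors' 4 peak lists assigned to one of these genes, the gene with the nearest start site. They came to 93 of the 97788 listed windows: 24 for TNFa+BMP4, 23 for TNFa, 24 for BMP4 and 22 for untreated cells. Each window is 125 bp long, and windows that shared at least 63 bp across lists were treated as 1 region, which gave 38 regions.

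The assay was ATAC-seq, in which a transposase inserts sequencing adapters into accessible DNA, in MC3T3-E1 cells, an established clonal line of mouse calvarial pre-osteoblasts. There were 4 groups of 2 libraries: cells given TNFa and BMP4, cells given TNFa alone, cells given BMP4 alone, and untreated cells, all in medium with 2.5% serum. Each cytokine was used at 10 ng/ml. The sample labels give 3 h for both cytokines, whereas the treatment protocol gives TNFa for 30 min followed by BMP4 for 3 h, and the titles of the TNFa libraries also carry the word p65. A further 2 libraries of sonicated DNA from the same line served as background. Whether the libraries of a group came from different cultures is not stated in the labels. The p-values below therefore describe variation among these libraries, which may be technical. The study asked how TNFa and BMP4, alone or together, alter accessibility in these cells.

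Osteoclasts form from macrophage-lineage precursors that receive signals from osteoblasts and other stromal cells. Csf1 encodes M-CSF, which keeps the precursors alive and dividing. Tnfsf11 encodes RANKL, the ligand that drives their differentiation, and Tnfrsf11b encodes osteoprotegerin (OPG), a secreted decoy receptor that binds RANKL and blocks it. Il6 and Lif encode cytokines that signal through the shared receptor subunit gp130 and that are known to raise RANKL in osteoblastic cells. Inflammatory cytokines such as TNFa act largely through NF-kB, whereas BMP4 acts through receptor-activated SMAD proteins.

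The sequence before the Il6 start is shown because the most accessible Il6 windows flank it, and that before the Csf1 start because its promoter window lay at another position in the TNFa lists. Both are the 250 bases that precede the RefSeq start (GRCm38.p6, which has the coordinates of mm10), with the motif matches in capitals.
Il6, chr5:30012864-30013113, plus strand: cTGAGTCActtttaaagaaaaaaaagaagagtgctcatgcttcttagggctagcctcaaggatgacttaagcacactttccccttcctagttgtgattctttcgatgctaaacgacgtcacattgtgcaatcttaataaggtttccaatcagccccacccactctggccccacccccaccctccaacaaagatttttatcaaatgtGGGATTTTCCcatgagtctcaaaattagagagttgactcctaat
Csf1, chr3:107760470-107760719, minus strand: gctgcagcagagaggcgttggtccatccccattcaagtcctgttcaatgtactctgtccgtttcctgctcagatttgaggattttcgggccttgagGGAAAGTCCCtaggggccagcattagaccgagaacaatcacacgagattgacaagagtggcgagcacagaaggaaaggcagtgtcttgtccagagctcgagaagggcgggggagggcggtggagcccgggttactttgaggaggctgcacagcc

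In the Il6 promoter the capitals mark an AP-1 motif (TGANTCA) at bases 2 to 8 and a match to the kappaB consensus at bases 207 to 216, counted from 1 at the 5′ end. In the Csf1 promoter they mark a kappaB consensus match on the opposite strand at bases 97 to 106. Among 32851 RefSeq promoters cut to the same 250 bases, 7.25% held the kappaB consensus and 6.75% the AP-1 motif on either strand. The other letters searched on both strands, with the share of promoters that hold them, were GGGNNTTCC (4.98%), GGAANTTCC (0.81%), TGACGTCA (1.55%), GGCGCC (9.59%), CAGACA (17.13%), TGTGGT (14.05%), CATTCC (12.64%), CCGGAA (12.03%) and TTGCGCAA (0.16%), and none of them was found in these 2 stretches. The Il6 promoter window covered bases 23 to 147 in the 3 treated groups and bases 9 to 133 in untreated cells. The kappaB match, 44 to 35 bases before the start, lay in the 186 bases between that window and the next one, so neither Il6 window held it. The AP-1 motif lay upstream of the promoter window in every list, so it too was outside both windows. A match is a run of letters and not a measured binding site.

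The libraries differed in ways the groups do not account for. Total depth was 16486612.5 to 21757662 tags in the 4 libraries with TNFa and 26048595 to 30051723 in the 4 without it, and the background libraries held 49527821.5 and 55862124 tags, totals as the file headers give them. The first principal component of all tested windows took 63.33% of the variance and placed BMP4 replicate 1 (−71.62) and TNFa+BMP4 replicate 1 (−73.97) at one end, against BMP4 replicate 2 (95.88) and untreated replicate 2 (94.31) at the other. The labels put all libraries in batch 1. In the file headers the background libraries carry another name prefix than the treated and untreated libraries, and what it marks was not examined. Of 12 osteoblast marker genes, 11 had at least 1 window and Alpl had none. Of 14 osteoclast and macrophage markers, 9 had no window in any list, among them Acp5, Dcstamp, Ptprc and Adgre1. The other 5, Nfatc1, Ctsk, Csf1r, Tnfrsf11a and Spi1, had at least 1. So did 6 of 7 chondrocyte, 3 of 6 adipocyte and 3 of 8 endothelial or muscle markers.

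The 5 genes differed in how many windows they had and where those lay. Lif had 13 regions, Csf1 12, Tnfrsf11b 9, Il6 3 and Tnfsf11 1, and 27 of the 38 regions were annotated as intergenic. The regions in all 4 lists numbered 10, against 42.5% of all 35534 regions. Background libraries held 0 to 30 tags in the member windows. A window that is missing from a list did not pass the authors' threshold over background there, an adjusted p-value of 0.05 and, per the file headers, a log2 fold change of 1, and its level in those cells is not analysed here.

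**Figure D1:**
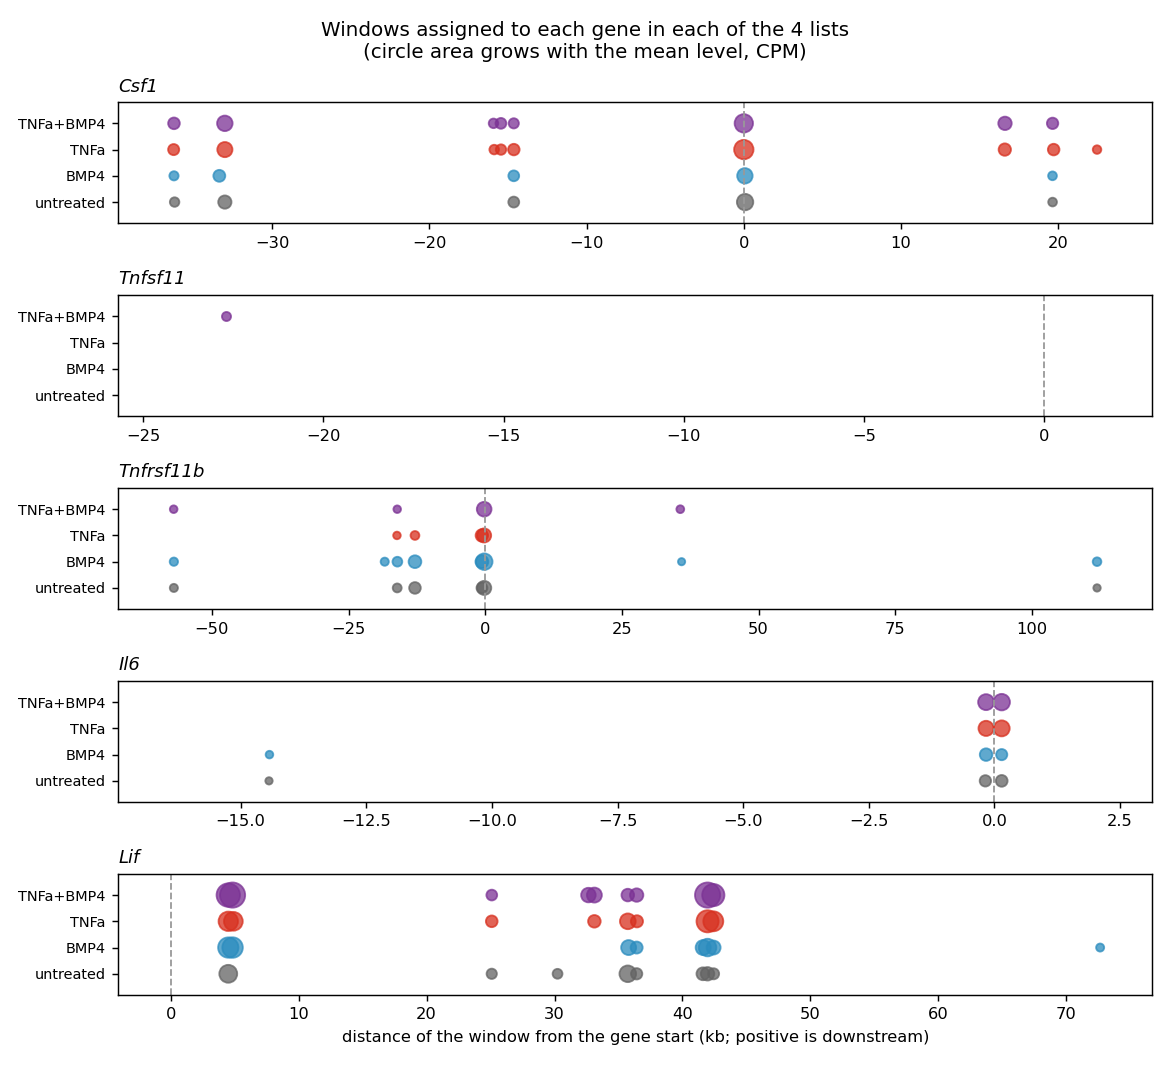
Position of every listed window of the 5 genes, in kb from the gene start used by the authors (x axis), in each of the 4 lists (rows), with circle area growing with the mean level in CPM. Csf1 and Lif had clusters of distal windows, Tnfsf11 had 1 window in the TNFa+BMP4 list alone, and Csf1 had 4 regions in both TNFa lists only, or 3 when any overlap counted as shared, since its promoter was listed in all groups.

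Regions listed in both TNFa lists and in neither of the other lists numbered 5 of 38, or 13.16%, whereas 4.18% of all regions had that pattern. They were 4 regions of Csf1 and 1 of Lif, and apart from the Csf1 promoter they are named here after their values were seen. The Csf1 promoter was listed in all 4 groups and fell under this pattern and its reverse because its window lay at another position. When any overlap counted as shared, 4 of 35 member regions were in both TNFa lists only, 3 of Csf1 and 1 of Lif, beside 3.84% of all regions, and 3 had the reverse pattern, none of them of Csf1, beside 7.43%. The reverse pattern, in both the BMP4 list and that of untreated cells only, held for 4 of 38 member regions and 7.36% of all regions, 1 each of Csf1, Tnfrsf11b, Il6 and Lif.

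For comparison of levels, the tag counts behind the deposited log2 values were recovered and scaled to CPM, the tags per 1000000 tags in the tested windows. All 4 lists held 14416 testable windows at matching positions, and 9 of them belonged to the members: 4 of Lif, 2 of Il6, 2 of Csf1 and 1 of Tnfrsf11b. All 9 passed the low-count filter. Windows are of equal length, so CPM can be compared between genes, but it is not corrected for background. Background libraries held 30 and 24 tags at Lif 4508 bp against 1 and 2 at the Il6 promoter. The authors' log2 fold changes over background were 5.67 to 6.84 at the Il6 promoter and 3.31 to 4.76 at Il6 145 bp. At Lif 41959 bp they were 4.03 to 5.93.

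Lif held the highest levels in CPM and the largest TNFa fold changes among the 9 tested windows. A pair of intergenic windows about 42 kb downstream of the start the authors used was more accessible with TNFa, with or without BMP4, than in untreated cells in every library. In the window 41959 bp downstream (chr11:4308693-4308817, mm10), levels were 286.2 and 171.0 CPM in TNFa+BMP4 cells, 209.4 and 136.2 in TNFa cells, 147.6 and 60.39 in BMP4 cells, and 63.67 and 45.47 in untreated cells. In the window 42431 bp downstream (chr11:4309165-4309289 in the list of untreated cells), they were 197.4 and 152.9 in TNFa+BMP4 cells, 185.3 and 90.8 in TNFa cells, 99.57 and 20.34 in BMP4 cells, and 40.21 and 24.2 in untreated cells. In both windows all 4 TNFa libraries lay above both untreated libraries, but the lower TNFa library lay below the higher BMP4 library. The share of all tested windows with that separation was not counted. Of all tested windows, 16.8% were higher without overlap in TNFa+BMP4 than in untreated cells, and 8.88% in TNFa than in untreated cells. A window with all 4 TNFa libraries above both untreated ones counts in both shares, so at most 8.88% had that separation.

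The order of the group means was the same in both windows, with TNFa+BMP4 at the top, then TNFa, BMP4 and untreated cells. At 41959 bp the means were 228.6 ± 81.4, 172.8 ± 51.7, 104.0 ± 61.7 and 54.57 ± 12.9 CPM in that order (SD, n = 2 each), and each group overlapped its neighbour in the order. The 2 windows rested on 62 to 203 and 32 to 140 tags per library, against 7 to 9 tags in the background libraries.

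Averaged over the BMP4 states, TNFa gave a log2 fold change of 1.94 ± 0.55 (SE) at 42431 bp and of 1.41 ± 0.43 at 41959 bp. The limma adjusted p over all 14416 windows was 0.854 for both, and with the replicate number as a block it was 0.0338 and 0.0464. The labels do not say what that number marks. Without the block limma called 0 windows in this comparison (0% of all tested, with 628 windows or 4.36% at an unadjusted p under 0.05), and a fit with voom weights also called 0. With the block it called 119 windows (0.825%), 66 of them higher with TNFa, and the 2 Lif windows were the member windows among them, while 2719 windows (18.9%) were at an unadjusted p under 0.05. TNFa+BMP4 against untreated cells gave 2.40 ± 0.78 and 2.00 ± 0.61, and TNFa alone against untreated cells 1.99 ± 0.78 and 1.61 ± 0.61, for the windows at 42431 and 41959 bp. Limma called neither window in those comparisons, and the adjusted p was 0.897 for TNFa+BMP4 and 1.00 for TNFa, or 0.109 and 0.606 with the block.

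TNFa+BMP4 cells exceeded BMP4 cells by 1.88 ± 0.78 and 1.21 ± 0.61 on the log2 scale at 42431 and 41959 bp, with the groups not overlapping in either window, as in 5 of the 9 member windows and 11.7% of all tested windows in that direction. TNFa+BMP4 cells exceeded TNFa cells by 0.41 ± 0.78 and 0.39 ± 0.61, with overlapping groups. BMP4 alone against untreated cells gave 0.52 ± 0.78 and 0.79 ± 0.61, also with overlap. The interaction term, which asks whether TNFa acted differently with BMP4, was −0.10 (95% interval −2.62 to 2.41) and −0.41 (−2.39 to 1.57), intervals that include differences of over 1 in either direction.

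The other tested Lif windows had smaller fold changes. The one 4508 bp downstream, in the last exon by the authors' annotation, had 215.7 and 175.5 CPM in TNFa+BMP4 cells, 192.2 and 66.91 in TNFa cells, 211.7 and 75.65 in BMP4 cells, and 150.0 and 66.01 in untreated cells. Replicate 1 was the higher library in every group there. The window 36418 bp downstream had group means of 54.09 ± 9.2 with TNFa+BMP4, 41.95 ± 8.6 with TNFa, 40.69 ± 31.5 with BMP4 and 34.41 ± 8.2 in untreated cells (SD, n = 2 each). The TNFa main effects were 0.40 ± 0.53 and 0.44 ± 0.45 (log2, SE).

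Among Lif windows in some lists only, the one 4844 bp downstream had 277.7 and 178.9 CPM in TNFa+BMP4 cells, 195.6 and 45.4 in TNFa cells and 262.1 and 30.51 in BMP4 cells, and it was not in the list of untreated cells. A window about 41.6 kb downstream, next to the pair above, was listed with BMP4 (91.56 and 53.4) and in untreated cells (62.0 and 34.47) but in neither TNFa list. The region 33115 bp downstream was listed in both TNFa lists only, with 101.5 and 40.77 in TNFa+BMP4 cells and 54.92 and 37.04 in TNFa cells. At 35726 bp levels were not higher with TNFa, with 32.42 and 60.02 in TNFa+BMP4 cells, 48.05 and 112.3 in TNFa cells, and 79.59 and 103.4 in untreated cells. Matched at any overlap, so that the window of the BMP4 list 66 bp away could be used, it had a TNFa main effect of −0.26 ± 0.58 (limma adjusted p = 0.925). The fold changes of Lif windows with TNFa were thus of both signs, with the highest in the 42-kb pair.

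**Figure D2:**
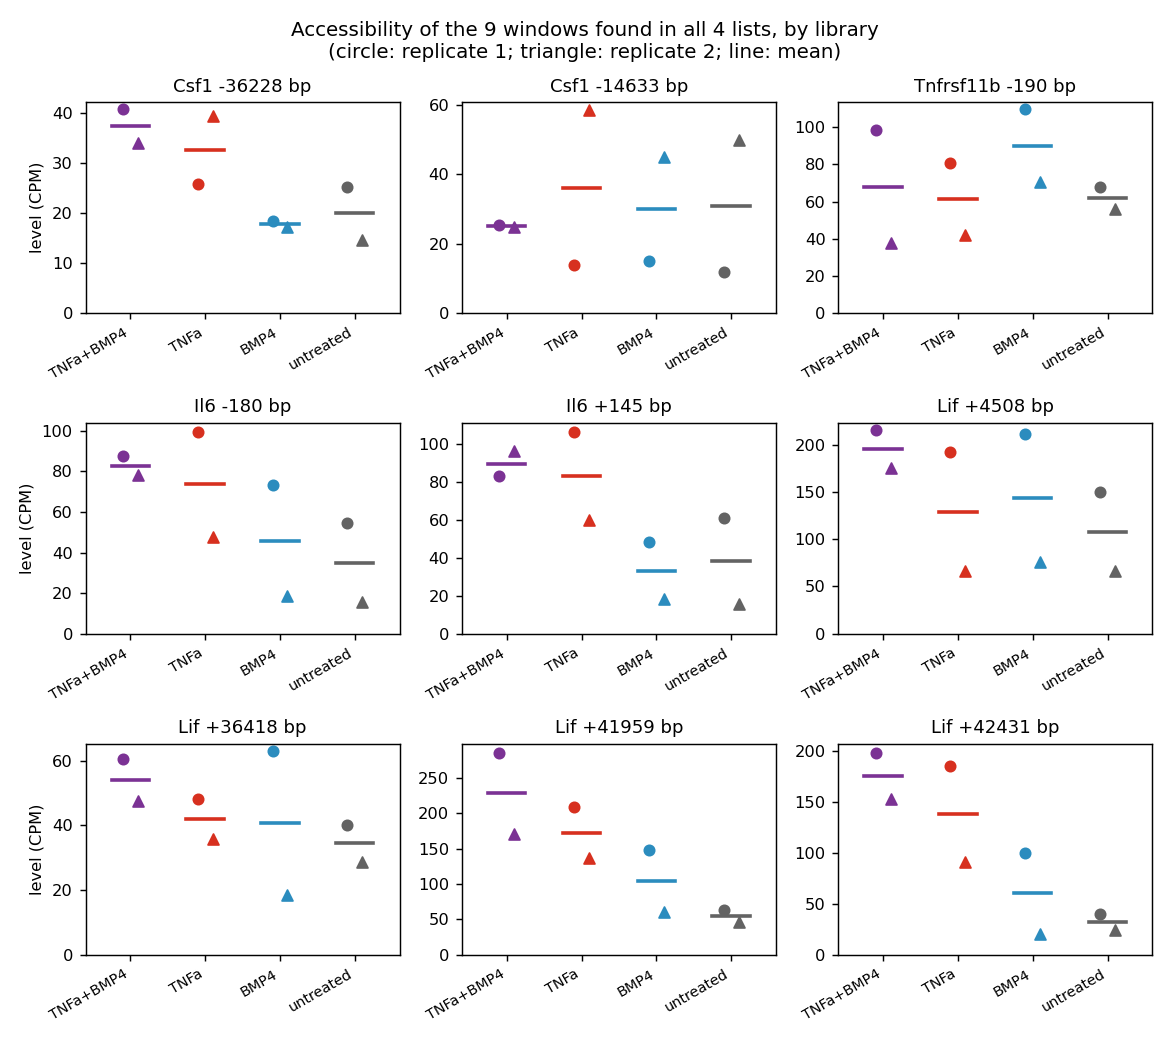
Level of each of the 9 tested windows (y axis, CPM) in each library of the 4 groups (x axis), with circles for replicate 1, triangles for replicate 2 and lines for group means. In the Lif windows 41959 and 42431 bp downstream all TNFa libraries lie above the untreated libraries. At most 8.88% of all tested windows had that separation. In the Tnfrsf11b window the groups overlap except that both BMP4 libraries exceed both untreated ones.

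Il6 had a window on each side of its start, and both were higher on average with TNFa. The promoter window (chr5:30012886-30013010 in the lists of treated cells) had 87.4 and 78.15 CPM in TNFa+BMP4 cells, 99.54 and 47.79 in TNFa cells, 73.24 and 18.44 in BMP4 cells, and 54.46 and 15.4 in untreated cells. The window centred 145 bp downstream, in the first intron by the authors' annotation (chr5:30013197-30013321), had 83.17 and 96.27 in TNFa+BMP4 cells, 106.4 and 59.74 in TNFa cells, 48.07 and 18.44 in BMP4 cells, and 61.16 and 15.4 in untreated cells. TNFa+BMP4 cells lay above untreated cells in every library of both windows, as in 16.8% of all tested windows. TNFa cells overlapped untreated cells in both.

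For the downstream Il6 window the TNFa main effect was 1.41 ± 0.53 (log2, SE, 95% interval 0.19 to 2.63), with a limma adjusted p of 0.854, or 0.0823 with the block. For the promoter window it was 1.15 ± 0.58 (−0.17 to 2.46), with the same adjusted p, or 0.131 with the block. Against untreated cells, TNFa+BMP4 gave 1.47 ± 0.75 and 1.43 ± 0.82, and TNFa alone 1.30 ± 0.75 and 1.18 ± 0.82. TNFa+BMP4 exceeded BMP4 alone by 1.52 ± 0.75 and 1.11 ± 0.82. The interaction at the downstream window was 0.21 (95% interval −2.22 to 2.65). The third Il6 region, 14437 bp upstream, was listed at low levels with BMP4 (3.43 and 11.4 CPM) and in untreated cells (3.35 and 8.07), and in neither TNFa list.

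Csf1 had 8 and 9 windows in the TNFa+BMP4 and TNFa lists and 5 in each of the others, and most of its level differences were within the spread of the libraries. Its promoter window was centred 14 bp downstream of the start in both TNFa lists, 83 bp downstream in the BMP4 list and 95 bp downstream in the list of untreated cells, a shift of 81 bp towards the start between the TNFa lists and the last. Only 44 of its 125 bp overlapped between TNFa and untreated lists, under the 63 bp required, so the promoter counts among the regions with a list pattern. Each in its own window, levels were 87.4 and 142.7 CPM in TNFa+BMP4 cells, 73.8 and 185.2 in TNFa cells, 38.91 and 114.4 in BMP4 cells, and 51.11 and 126.1 in untreated cells. The groups overlapped, and replicate 2 was the higher library in each. Matched at any overlap, the promoter had a TNFa main effect of 0.64 ± 0.53 (limma adjusted p = 0.851, or 0.291 with the block). The kappaB match printed above was upstream of the promoter window in every list, which reached bases 203 to 250 in the TNFa lists and none of the printed bases in the others.

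The Csf1 window 36228 bp upstream (chr3:107796635-107796759 in the list of untreated cells) was, of the 9 tested windows, the one in which all 4 TNFa libraries lay above all 4 others. It had 40.88 and 33.98 CPM in TNFa+BMP4 cells, 25.74 and 39.43 in TNFa cells, 18.31 and 17.16 in BMP4 cells, and 25.13 and 14.67 in untreated cells. The lowest TNFa library and the highest untreated library were nearly level, and 1.82% of all tested windows separated in this direction. The TNFa main effect was 0.83 ± 0.36 (limma adjusted p = 0.854, or 0.201 with the block). TNFa+BMP4 gave 0.89 ± 0.51 and TNFa alone 0.67 ± 0.51 against untreated cells, and TNFa+BMP4 exceeded BMP4 alone by 0.99 ± 0.51. It rested on 15 to 33 tags per library.

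The other tested Csf1 window, 14633 bp upstream, had its higher level in replicate 2 of 3 groups. It had 25.38 and 24.92 CPM in TNFa+BMP4 cells, 13.73 and 58.54 in TNFa cells, 14.88 and 45.14 in BMP4 cells, and 11.73 and 49.87 in untreated cells, and its TNFa main effect was 0.08 ± 0.62 (log2, SE). At 33027 bp upstream the region had 80.36 and 74.75 in TNFa+BMP4 cells, 42.9 and 103.9 in TNFa cells, and 45.24 and 60.14 in untreated cells, and the BMP4 list had a separate window nearby.

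The remaining Csf1 regions in both TNFa lists only lay in an intron and upstream. The intronic one, 16644 bp downstream, had 67.67 and 40.77 CPM in TNFa+BMP4 cells and 37.76 and 50.18 in TNFa cells. The one 15446 bp upstream had 42.29 and 18.12 in TNFa+BMP4 cells and 36.04 and 17.92 in TNFa cells. At 15879 bp upstream the levels were 33.83 and 6.80 in TNFa+BMP4 cells and 32.61 and 8.36 in TNFa cells. Replicate 2 of these groups held 6 and 7 tags at 15879 bp, against 6 to 9 in the deeper background libraries. Near the gene's end, 19674 bp downstream, matching at any overlap gave a TNFa main effect of 1.24 ± 0.35 (limma adjusted p = 0.851, or 0.0735 with the block), with levels in the lists' own windows of 38.06 and 31.71 in TNFa+BMP4 cells, 37.76 and 35.84 in TNFa cells, 10.3 and 19.07 in BMP4 cells, and 13.4 and 15.4 in untreated cells. The TNFa and other libraries did not overlap there, in a window that moved by up to 74 bp between lists and that is named after its values were seen. Of the 14416 windows of the main matching, 1.82% separated in this direction, and the share at any overlap was not counted.

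RANKL had almost no listed window, and its decoy receptor was listed in all groups. Tnfsf11, the RANKL gene, had a single window, 22688 bp upstream (chr14:78330669-78330793), in the TNFa+BMP4 list alone. It held 17 and 9 tags there (23.97 and 10.19 CPM) against 9 and 3 tags in the background libraries, and the authors' deposited table gives it a log2 fold change over background of 2.44 with an adjusted p-value of 0.0258. No window lay at the Tnfsf11 promoter in any list.

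The Tnfrsf11b promoter window, 190 bp upstream (chr15:54278612-54278736 in the list of untreated cells), was open in all groups. It had 98.68 and 37.37 CPM in TNFa+BMP4 cells, 80.66 and 41.82 in TNFa cells, 109.9 and 70.56 in BMP4 cells, and 67.86 and 55.74 in untreated cells. Both BMP4 libraries lay above both untreated libraries, a separation that 8.32% of all windows showed, and the TNFa groups overlapped all others. BMP4 against untreated cells was 0.50 ± 0.64 (log2, SE), TNFa+BMP4 against BMP4 was −0.52 ± 0.64, and the TNFa main effect was −0.30 ± 0.46 (95% interval −1.34 to 0.74). The limma adjusted p was 1.00, 0.989 and 0.889 for these 3, and the interaction was −0.44 (95% interval −2.52 to 1.64).

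Windows of Tnfrsf11b, the promoter included, numbered 4 with TNFa+BMP4, 4 with TNFa, 8 with BMP4 and 6 in untreated cells. The window 12857 bp upstream had 12.01 and 17.92 CPM in TNFa cells, 36.62 and 58.49 in BMP4 cells, and 20.94 and 53.54 in untreated cells, and was missing from the TNFa+BMP4 list. At 16109 bp upstream, matched at any overlap, the TNFa main effect was −0.95 ± 0.56 (limma adjusted p = 0.851, or 0.199 with the block). Its levels were 4.23 and 10.19 in TNFa+BMP4 cells, 6.87 and 7.17 in TNFa cells, 5.72 and 38.14 in BMP4 cells, and 10.89 and 20.54 in untreated cells, from as few as 3 tags. A second promoter window, 605 bp upstream, had 44.82 ± 31.3 in TNFa cells, 48.45 ± 49.6 in BMP4 cells, and 30.63 ± 27.8 in untreated cells (SD, n = 2 each), with replicate 1 the higher library in each. The window 56962 bp upstream stayed at or under 17.8 in every library that listed it.

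Over the 9 tested windows, the TNFa main effect was above 0 in 8, against 49.9% of all tested windows, with a median of 0.83 on the log2 scale, beside −0.001 over all tested windows. They left out 1 of the 10 regions in all 4 lists, Tnfrsf11b 16109 bp upstream, whose window moved by up to 78 bp between lists. Windows added by matching at any overlap had effects of 1.24 (Csf1 19674 bp), 0.64 (Csf1 promoter), −0.26 (Lif 35726 bp) and −0.95 (Tnfrsf11b 16109 bp). Of the 9 tested windows, 4 were at an unadjusted limma p under 0.05, 2 of Lif, 1 of Il6 and 1 of Csf1, beside 4.36% of all windows. TNFa+BMP4 and untreated libraries did not overlap in 7 of the 9, all higher with TNFa+BMP4, beside 16.8% of all windows higher in that way. In the same comparison limma called 0 windows (0%), with 357 (2.48%) at an unadjusted p under 0.05, or 2552 (17.7%) with the block. TNFa and untreated libraries did not overlap in 3 of the 9, all higher with TNFa, beside 8.88% of all windows, and limma called 0 windows (0%) there too. These comparisons share the untreated libraries, and the windows of 1 gene are not independent of each other.

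**Figure D3:**
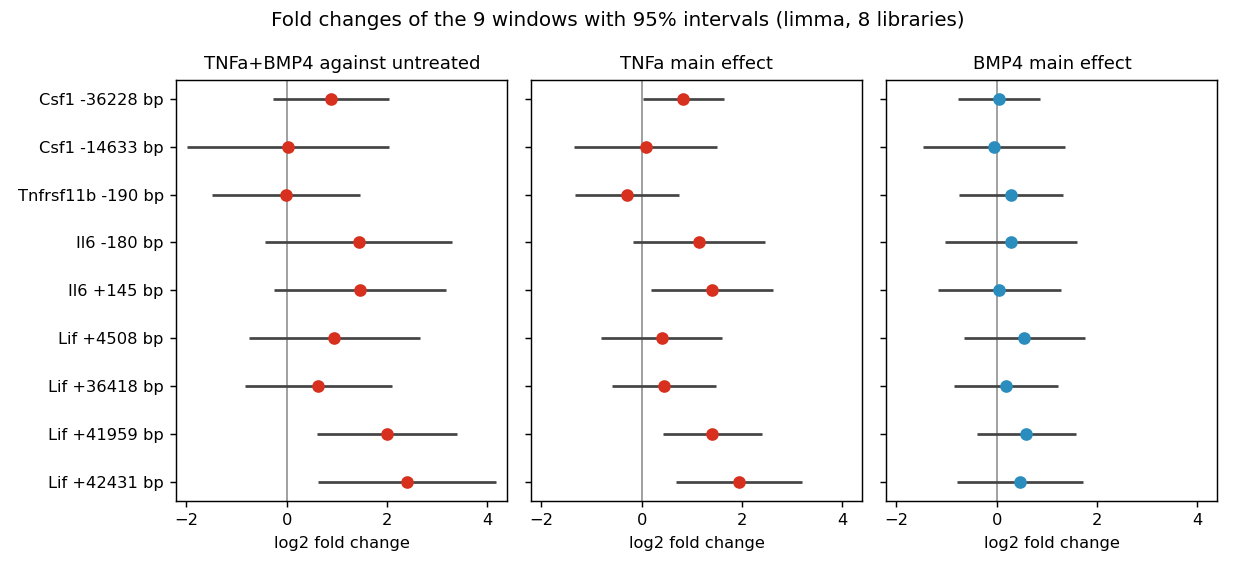
Log2 fold change (x axis) of each of the 9 tested windows (rows) for TNFa+BMP4 against untreated cells, for TNFa averaged over the BMP4 states and for BMP4 averaged over the TNFa states, with 95% intervals from limma without the replicate block. The Lif windows 41959 and 42431 bp downstream lie farthest from 0 for TNFa, and every BMP4 interval includes 0.

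No member window passed the test for BMP4. Averaged over the TNFa states, the largest BMP4 effects were 0.59 ± 0.43 at Lif 41959 bp, 0.55 ± 0.53 at Lif 4508 bp and 0.47 ± 0.55 at Lif 42431 bp. They were followed by 0.29 ± 0.58 at the Il6 promoter, 0.29 ± 0.46 at the Tnfrsf11b promoter and 0.19 ± 0.45 at Lif 36418 bp. Effects at the downstream Il6 window (0.06 ± 0.53) and the Csf1 windows 36228 bp (0.05 ± 0.36) and 14633 bp (−0.05 ± 0.62) upstream were near 0. Limma called 0 windows for BMP4 in all 14416 (0%), with 158 (1.1%) at an unadjusted p under 0.05, or 1352 (9.38%) with the block, none of them a member.

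The levels of the member windows correlated with the first principal component to differing degrees, 8 of the 9 negatively and Csf1 14633 bp upstream positively. The component took 63.33% of the variance of all tested windows, and the share of them that correlated likewise was not counted. Pearson's r over the 8 libraries, given as a description since the component was made from the same libraries, was −0.83 for Lif 42431 bp, −0.80 for Lif 41959 bp, −0.81 for Il6 145 bp, −0.94 for the Il6 promoter and −0.45 for Csf1 36228 bp upstream. It was −0.95 for Lif 4508 bp, −0.94 for Lif 36418 bp, −0.54 for the Tnfrsf11b promoter and 0.79 for Csf1 14633 bp upstream. With the component as a covariate, a fit added after the data were seen, the TNFa main effects of the first 5 windows were 1.39, 1.06, 0.94, 0.56 and 0.79. The lowest adjusted p among them was 0.149. The lower depth of the TNFa libraries also went with TNFa. With scaling by the libraries' total tags and the block, also added after the data were seen, the Lif windows had effects of 1.79 and 1.26 (adjusted p = 0.0193 and 0.0490). The part of depth and of the component in these results was not tested beyond these fits.

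**Figure D4:**
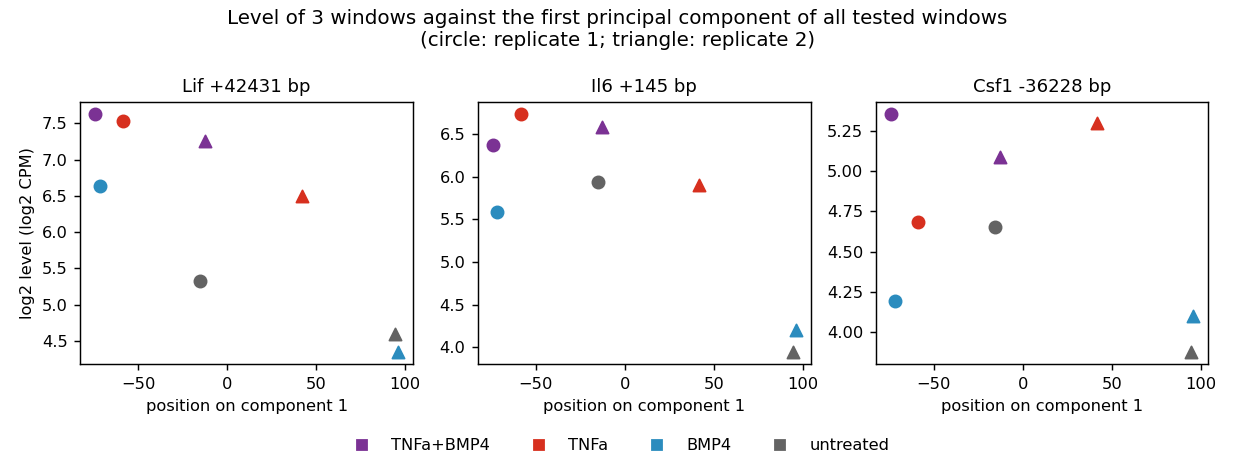
Log2 level of a Lif, an Il6 and a Csf1 window (y axis, log2 CPM) against each library's position on the first principal component of all 14416 tested windows (x axis), with colours for groups, circles for replicate 1 and triangles for replicate 2. Levels of the Lif and Il6 windows fall along the component, and both TNFa+BMP4 libraries and TNFa replicate 1 lie above the BMP4 or untreated library nearest to them along it. TNFa replicate 2, at 41.87, has no library without TNFa near it.

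Other genes of the pathway gave few windows that stood out. Of 43 genes for further osteoclast signals of stromal cells, 18 had 31 tested windows, of which limma called 0 in either direction for the TNFa main effect, or 2 higher and 0 lower with the block. Of all tested windows, 0.825% were called with the block and 4.36% were at an unadjusted p under 0.05 without it. In this list 2 windows were higher and 1 lower with TNFa at that unadjusted p, and the median was 0.14. The 2 higher ones belonged to Ccl2, a chemokine that draws monocytes, at 2492 bp upstream (2.03 ± 0.45) and 23633 bp upstream (1.68 ± 0.47). The first had 62.03 and 108.7 CPM in TNFa+BMP4 cells, 87.53 and 174.4 in TNFa cells, 17.17 and 27.34 in BMP4 cells, and 16.76 and 35.94 in untreated cells, with no overlap between libraries with and without TNFa. Of all tested windows, 1.82% separated in this direction. With the block the limma adjusted p of the 2 Ccl2 windows was 0.0155 and 0.0319.

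Receptors and transducers of the 5 cytokines had 56 tested windows from 25 of 32 genes, with 0 called, or 3 higher and 0 lower with the block (2 of Nfkbia and 1 of Nfkb2, limma adjusted p = 0.0419 each). Of all tested windows, 4.36% were at an unadjusted p under 0.05, or 18.9% with the block. In this list 3 were higher and 0 lower, or 12 and 1 with the block, and the median TNFa main effect was 0.18. The 3 without the block were a window of Nfkbia, the NF-kB inhibitor, 27682 bp downstream (1.78 ± 0.55), the promoter of Nfkb2, an NF-kB subunit gene (1.86 ± 0.65), and the promoter of Il6st, which encodes gp130, the receptor subunit that IL-6 and LIF share (1.51 ± 0.53). The Il6st promoter had 214.3 and 202.7 CPM in TNFa+BMP4 cells, 259.1 and 137.4 in TNFa cells, 96.13 and 38.78 in BMP4 cells, and 149.1 and 38.87 in untreated cells.

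Factors known to control RANKL and OPG had 82 tested windows from 26 of 32 genes, with 0 called, or 1 lower with the block (Smad5, limma adjusted p = 0.0419). At an unadjusted p under 0.05, 2 were higher and 5 lower, or 10 and 15 with the block, and the median was −0.008. The shares of all tested windows at that p, in either direction, were 4.36% and 18.9%. The TNFa main effect was −1.57 ± 0.37 at an intronic window 89417 bp downstream of the start of Smad5, a BMP-activated SMAD. That window was assigned to Smad5 by nearest start, and which gene's intron holds it was not checked. The effect was −1.53 ± 0.42 at a window of Runx2, the osteoblast master regulator, 147033 bp downstream, which was not called with or without the block. Housekeeping genes had 37 windows from 15 of 18 genes, with 0 called with or without the block, 0 at an unadjusted p under 0.05, or 8 higher and 1 lower with the block, and a median of 0.20. Osteoblast markers (33 windows) had a median of −0.08, osteoclast and macrophage markers (6) 0.23, adipocyte markers (4) −0.15, chondrocyte markers (11) −0.35 and endothelial or muscle markers (4) −0.23, with 0 called in each, or 1 lower with the block in the chondrocyte list (Sox6).

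The genes with the most similar pattern were taken from each member gene's highest tested window, by Pearson's r of log2 level over the 8 libraries. For the downstream Il6 window they were Il6st (0.992, promoter), Mir7008 (0.987) and Creb3l2 (0.987). For Lif 4508 bp they were Taf11 (0.996), Fh1 (0.996) and Ensa (0.995). For Csf1 14633 bp upstream they were Loxl1 (0.974), Il34 (0.973) and F2rl1 (0.971), and for the Tnfrsf11b promoter Col1a2 (0.965), Srd5a1 (0.961) and Inpp1 (0.961). All points share libraries, depth and the first component. Among the members, the pair of Lif windows at 42 kb correlated at 0.971 and the 2 Il6 windows at 0.959, while Lif 42431 bp and the Tnfrsf11b promoter correlated at 0.132.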

How the data were processed

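ATAC-seq tags were counted in 125-bp windows. Trimmomatic 0.39, Bowtie2 2.5.1, Picard 2.25.1, deepTools 3.5.1 and HOMER 4.11 and the build mm10 are named in the submitters' processing notes. Peaks were called by the authors per group over the background libraries, per the file headers, and they deposited regularised log2 values per library, a log2 fold change over background, p-values and adjusted p-values. The log2 values were made separately per list, so the tag counts behind them were recovered by inverting the transformation: 99.33 to 100% of values came out whole (within 0.1), against 16.59 to 19.03% with its constants off by 5%. Windows of all 4 lists that shared at least 63 bp were tested (14416, after a filter of 10 tags in 2 libraries) with limma 3.58.1 (R 4.3.3) on log2 CPM, with TMM scaling (calculated in the scripts) and a pseudocount of 2 tags. Fold changes are on that scale, which understates changes of low windows. A count model was planned for deposited counts, but the deposited unit is log2, so limma was used. The fit had group as its only term, and p-values were adjusted by Benjamini-Hochberg. The fit without the block was run on simulated counts of independent libraries. That check does not cover the fit with the block or the first component of the real libraries.

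Replicate numbers come from the sample titles, which do not say what they mark. Deviations of same-numbered libraries from their group means correlated at 0.105 to 0.764 over the 6 pairs of groups, each above 0.1, so the numbers were taken to pair the samples and the fit with a replicate block is given where it changes a call or a count. This pairing was inferred from the same libraries that were tested, and its lowest correlation was barely above 0.1. In every group replicate 2 lay higher on the first principal component than replicate 1, and whether the numbers mark a real pairing was not tested. Every limma adjusted p under 0.05 given here rests on this pairing. Every member window listed in all 4 lists and tested was described, with up to 3 others per gene by tags and any within 5000 bp of a start. The members, lists and tests were chosen with earlier results of these data known. Sequences are from RefSeq (GRCm38.p6), and 4 of the 5 genes had a promoter entry. The Lif entry is for another start than that used in the lists. Counting intervals are not given, and PCR copies are not independent molecules.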

Additional observations from a re-analysis of the deposited data

How the results depend on the processing

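The TNFa main effects of the Lif windows at 41959 and 42431 bp, both Il6 windows and Csf1 36228 bp upstream were above 0 under every alternative that gave a value, over ranges of 1.06 to 1.73, 1.39 to 2.48, 0.56 to 1.62 (Il6 promoter), 0.94 to 1.87 and 0.66 to 1.01, and were called by the block alone (Lif only). The replicate block called 119 windows for the TNFa main effect, 2 of them members, and with scaling by total tags 307 and 2, besides 1 for TNFa+BMP4 against untreated cells; it changed no other call among the members. Leaving out 1 library at a time gave 0 called windows throughout. Effects close to 0 changed sign. For TNFa+BMP4 against untreated cells, Csf1 14633 bp upstream was −0.028 with a pseudocount of 8, −0.11 with scaling by total tags (with and without the block), −0.004 at 80% overlap and −0.001 with the deposited values, and the Tnfrsf11b promoter was 0.001 with a pseudocount of 8, 0.004 with the filter at a mean of 30 tags and 0.000 with median-of-ratios scaling. The TNFa main effect of Csf1 14633 bp was −0.072 with scaling by total tags, with and without the block. The first component as a covariate gave −0.12 for TNFa at Lif 4508 bp, and for BMP4 −0.038 at Lif 36418 bp, 0.32 at Csf1 14633 bp, −0.067 at the Il6 promoter and −0.23 at Il6 145 bp. The cause was not tested.

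Leaving out a library moved the BMP4 main effect between −0.56 and 0.42 (Csf1 14633 bp), −0.12 and 0.23 (Csf1 36228 bp), −0.41 and 0.52 (Il6 145 bp), −0.18 and 0.73 (Il6 promoter), −0.23 and 0.58 (Lif 36418 bp), −0.08 and 0.99 (Lif 42431 bp) and −0.066 and 0.62 (Tnfrsf11b). It moved the TNFa main effect between −0.40 and 0.57 (Csf1 14633 bp) and −0.63 and 0.041 (Tnfrsf11b), TNFa+BMP4 against untreated cells between −0.93 and 0.98 (Csf1 14633 bp) and −0.70 and 0.67 (Tnfrsf11b), and at Lif 42431 bp BMP4 against untreated cells between −0.58 and 1.57 and TNFa+BMP4 against TNFa between −0.11 and 0.89. TNFa+BMP4 against BMP4 ran from −1.19 to 0.16 (Tnfrsf11b), and the interaction from −0.72 to 1.14 (Il6 145 bp), −1.004 to 0.23 (Lif 41959 bp), −1.16 to 0.99 (Lif 42431 bp) and −1.11 to 0.24 (Tnfrsf11b). With 1 library left in a group, it was assumed to vary like the others.

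Joining windows within 500 bp gave 25 member regions, 3 of them shared by the TNFa and TNFa+BMP4 lists and absent from the others (2.93% of all regions) and 2 with the reverse pattern (8.08%). An adjusted p under 0.001 left 22, with 5 in all 4 lists. Some member windows rested on few tags (17 and 9 for Tnfsf11), which limits the precision of their levels.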
